A study of Homo sapiens with 6 samples.

Results

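The genes described here are 10 members of the insulin-like growth factor (IGF) system, namely the ligand gene IGF1, the receptor gene IGF1R, the binding protein genes IGFBP1 to IGFBP7 and the protease gene PAPPA. They were chosen by name, with earlier results of these data known, from a table of 58735 genes, and all 10 were found in it. Of these, 9 reached a level of at least 1 FPKM (reads per length of gene, scaled by a denominator of the library) in at least 1 library. IGF1 was the exception.

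IGFs are secreted growth factors that act mainly through the receptor tyrosine kinase IGF1R, which signals through IRS adaptor proteins, PI3K and AKT. Most IGF outside cells is held by the high-affinity binding proteins IGFBP1 to IGFBP6, which keep it from the receptor or carry it in the circulation. PAPPA, a secreted metalloproteinase first known from pregnancy serum, cuts IGFBP4 above all and also IGFBP5, which frees IGF near cells, and the stanniocalcins STC1 and STC2 inhibit it. IGF2 is the main IGF of the embryo, and IGF signalling is known to promote growth of the embryonic heart wall.

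RNA was sequenced from H9, an established human embryonic stem cell line, in the course of differentiation into cardiac organoids, cultured cell aggregates meant to model heart tissue. The 6 groups are day 0, day 2, day 3, day 4, day 6 and day 30, with 1 library each. Per the labels, each harvest took 10 organoids, so a library is a pool. All groups share the line, and the agents given are not stated in the sources used here. The labels call all 6 samples embryonic stem cells, but POU5F1, the central pluripotency factor, stood at 561 FPKM at day 0 and only 0.280 FPKM at day 30. Reads recovered from the FPKM values numbered 13500887 to 15526924 a library. With 1 library per day, no difference below has a replicate check, and no p-value is given. Brackets hold 95% intervals that cover counting error only, exact Poisson intervals for levels and exact conditional binomial intervals for folds. A gene was called higher (rose) or lower (fell) when its log2(FPKM + 1) differed by at least 1 and its level was at least 1 FPKM in either library. In these bulk libraries, fewer cells of a type and less RNA per cell cannot be told apart.

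Over the course, the stem cell library was rich in IGFBP2, the day 4 library in IGFBP4, the day 6 library in IGFBP6 as well, and the day 30 library in IGFBP4, IGFBP3 and PAPPA. The highest of the 6 levels fell on day 30 for 7 of the 10 genes, on day 6 for IGF1 and IGFBP6, and on day 0 for IGFBP2. Only IGF1R, IGFBP2, IGFBP4 and IGFBP6 were at 1 FPKM or more in all 6 libraries. IGF1R was also the only one of the 9 measurable genes whose log2(FPKM + 1) varied by less than 1, at 0.83.

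**Figure D1:**
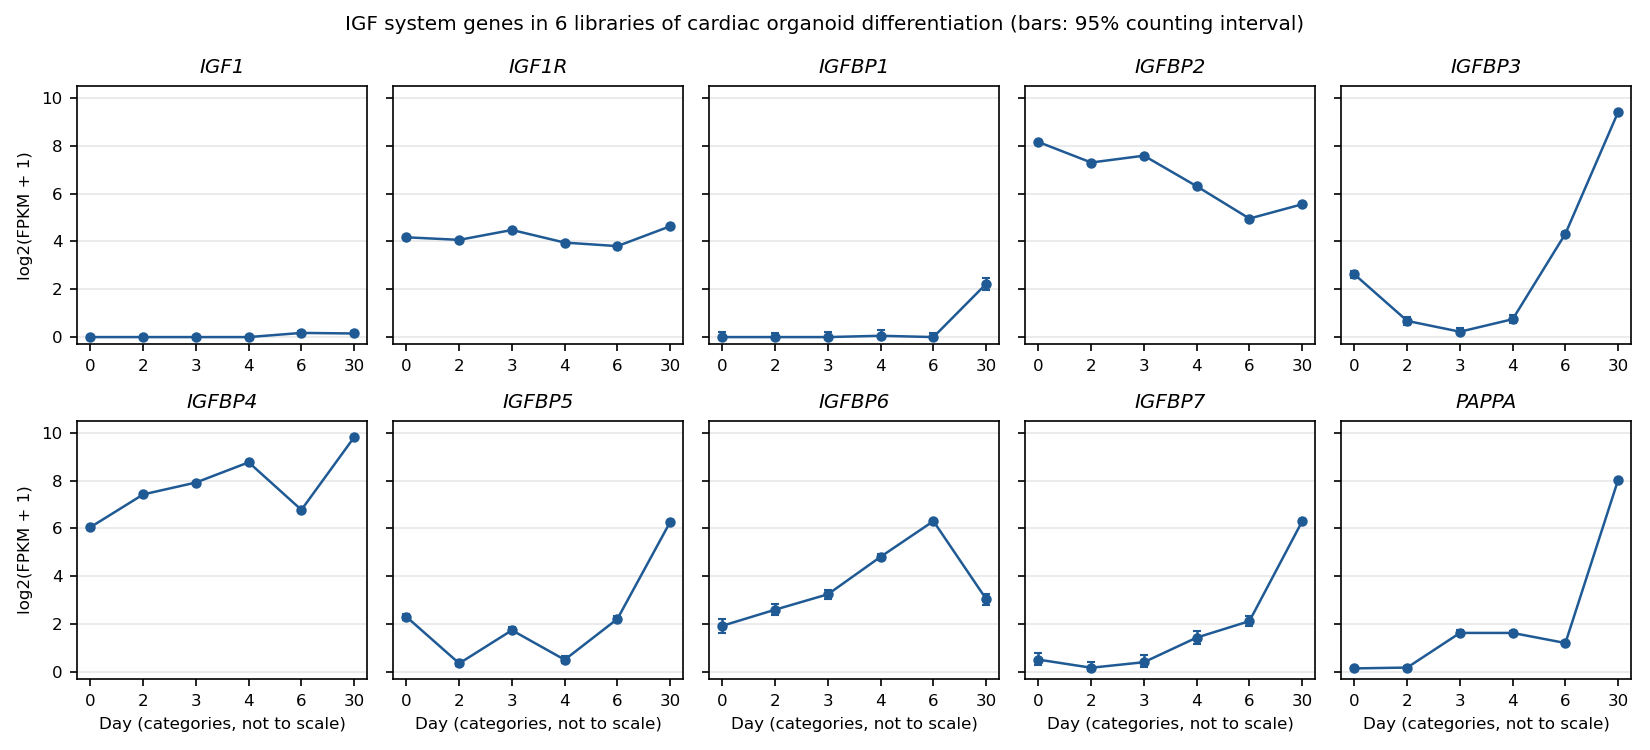
Level of each of the 10 genes as log2(FPKM + 1) on the y axis by day on the x axis, 1 library a point, with 95% counting intervals as bars. IGFBP3 and PAPPA climb to 9.41 and 8.03 at day 30, IGFBP2 declines from 8.16, IGFBP6 peaks at day 6 with 6.31, and IGF1 stays at or below 0.17.

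IGF1 (ENSG00000017427, GRCh38 chromosome 12, 102395874 to 102481744, minus strand), the growth factor through which growth hormone acts in later life, had 0 reads at days 0, 2, 3 and 4. A floor of 3 reads equals 0.0257 FPKM at day 3, where it is highest of these days, and the Poisson interval there reaches 0.0317 FPKM. IGF1 had 18 reads at day 6 (0.128 FPKM, 0.0760 to 0.203) and 11 reads at day 30 (0.110 FPKM, 0.0547 to 0.196). The last levels did not differ beyond counting error (1.17-fold, 0.523 to 2.74). The annotation places 82.4% of the exon bases of IGF1 under HELLPAR, a long noncoding RNA gene on the opposite strand. Whether reads that fall on both were counted is not stated, so the levels of IGF1 may be lower limits. HELLPAR itself was listed at 0.00908 to 0.0457 FPKM.

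The other ligand, IGF2, stood at 0.00986 FPKM at day 0 from 1 read, 0.0178 at day 2, 0.410 at day 3, 2.48 at day 4, 17.1 at day 6 and 163 at day 30. It was called higher in each of the last 3 steps. In the day 30 library the level of IGF2 was 1488-fold that of IGF1 (831.5 to 2982). The table holds IGF2 on 2 rows, and the values are those of ENSG00000167244. The second row shares 73.7% of the exon bases of this row and was at 0 in all libraries, so the levels of IGF2 may be lower limits too. The 1488-fold ratio carries the limits of both genes, which its interval does not cover. Insulin (INS) had 0 reads throughout.

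IGF1R (ENSG00000140443, GRCh38 chromosome 15, 98648539 to 98964530, plus strand), the receptor of both ligands, stood at 17.0 FPKM at day 0, 15.7 at day 2, 21.3 at day 3, 14.5 at day 4, 13.0 at day 6 and 23.8 at day 30. It passed the rule in none of the 6 comparisons, although every step between neighbours in the order of its levels had a counting interval that excluded 1. Which library was highest depended on the scaling between libraries. Scaled by recovered reads, day 3 led with 22.6 against 19.7 at day 30, and on the TPM scale, which gives every library the same summed level, day 3 led with 90.4 against 85.5. The insulin receptor INSR rose from 5.14 FPKM at day 6 to 17.1 at day 30. The level of IGF1R was therefore 3.29-fold that of INSR at day 0 (3.04 to 3.56) and 1.40-fold at day 30 (1.33 to 1.47).

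**Figure D2:**
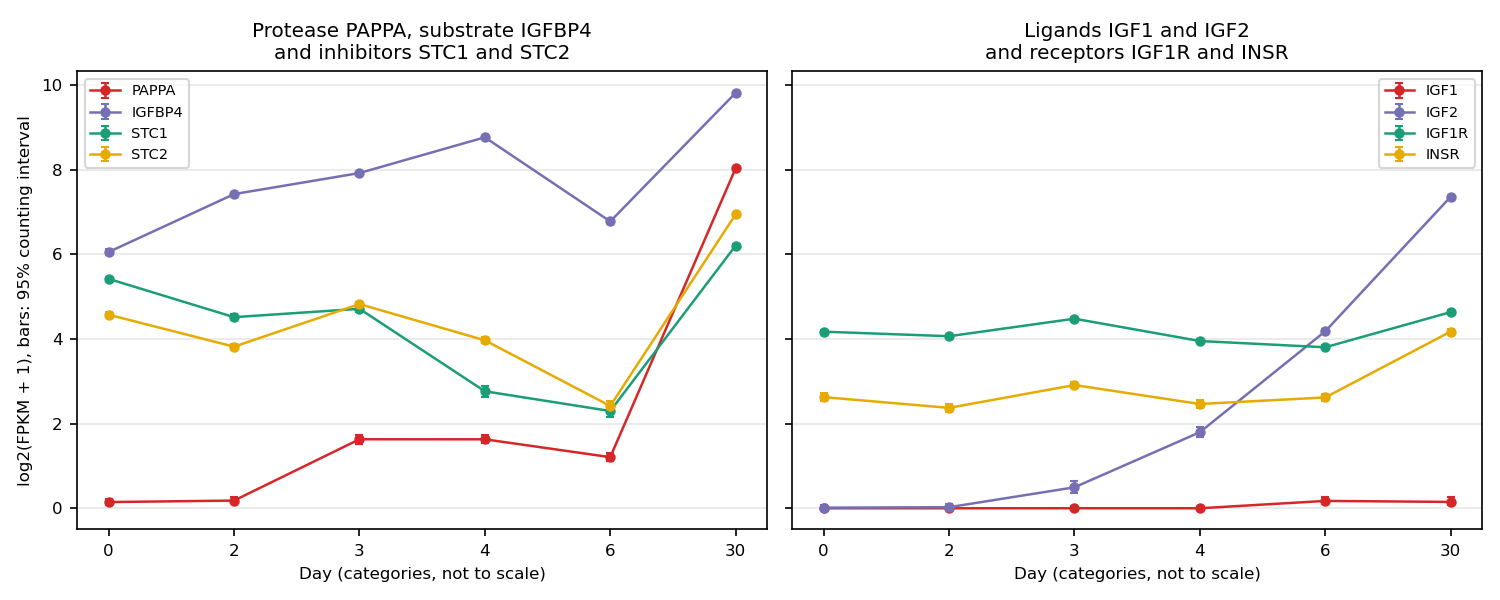
Levels as log2(FPKM + 1) on the y axis by day on the x axis for PAPPA, IGFBP4, STC1 and STC2 on the left and for IGF1, IGF2, IGF1R and INSR on the right, 1 library a point, with 95% counting intervals as bars. PAPPA lies below both stanniocalcins up to day 6 and above them at day 30, and IGF2 climbs to 7.36 while IGF1 stays near 0.

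Promoter sequence is shown for 3 genes, the protease PAPPA and its substrate IGFBP4, which both stood highest at day 30, and IGFBP2, which went the other way. The 3 were chosen after their values were seen. Each line gives the 250 bases before the RefSeq start site, 5′ to 3′ on the gene's own strand (RefSeq, GRCh38.p14), from chr9:116153541-116153790 for PAPPA, chr17:40443200-40443449 for IGFBP4 and chr2:216632578-216632827 for IGFBP2, all on the plus strand. Capitals mark matches, on either strand, to the TATA box TATAAA, the CCAAT box CCAAT, the GC box GGGCGG or the hypoxia element core ACGTG.
PAPPA: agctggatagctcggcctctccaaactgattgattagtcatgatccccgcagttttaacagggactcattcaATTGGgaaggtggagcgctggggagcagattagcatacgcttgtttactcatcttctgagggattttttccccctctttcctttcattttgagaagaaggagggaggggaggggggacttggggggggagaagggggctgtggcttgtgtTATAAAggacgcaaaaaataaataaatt
IGFBP4: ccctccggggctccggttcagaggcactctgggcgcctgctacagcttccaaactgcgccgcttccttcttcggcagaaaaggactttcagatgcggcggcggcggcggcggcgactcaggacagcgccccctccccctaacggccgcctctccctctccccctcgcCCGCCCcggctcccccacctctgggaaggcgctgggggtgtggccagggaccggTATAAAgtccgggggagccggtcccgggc
IGFBP2: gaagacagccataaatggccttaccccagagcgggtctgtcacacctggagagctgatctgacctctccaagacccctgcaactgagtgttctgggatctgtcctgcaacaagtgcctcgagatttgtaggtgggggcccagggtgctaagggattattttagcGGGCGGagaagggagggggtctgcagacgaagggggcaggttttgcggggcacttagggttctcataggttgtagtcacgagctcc
The TATA box begins 28 bases before the start site of PAPPA and 29 bases before that of IGFBP4, and is absent from the IGFBP2 window. Of the 35116 RefSeq windows of this length, 10.7% hold a TATA box by these letters, 32.0% a CCAAT box, 42.6% a GC box and 18.5% the hypoxia element core. Of the 10 genes 8 matched a promoter in that table, and PAPPA and IGFBP4 were the ones among the 8 with the exact letters TATAAA. IGF1R, IGFBP3 and IGFBP5, which also stood highest at day 30 by FPKM, lacked these letters. Looser forms of the TATA box were not searched. The hypoxia element core was found in the window of IGF1R alone among the 8. The GC content of the windows was 48.0% for PAPPA, 71.6% for IGFBP4 and 56.8% for IGFBP2, and their median over all windows was 58.0%. A match is a description of these letters and no evidence of binding.

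IGFBP2 (ENSG00000115457, chromosome 2, 216632828 to 216664436, plus strand), a binding protein with a preference for IGF2, was the leading binding protein of the stem cells. Its levels were 284 FPKM at day 0 (280.4 to 288.4), 157 at day 2, 191 at day 3, 78.2 at day 4, 30.0 at day 6 and 46.0 at day 30. It ranked 71 among protein-coding genes at day 0 and 846 at day 30. IGFBP2 was lower at day 4 than at day 3 (2.44-fold, 2.37 to 2.52) and lower at day 6 than at day 4 (2.60-fold, 2.48 to 2.73), both calls. Day 30 was 6.19-fold below day 0 (5.94 to 6.44), which made IGFBP2 the only one of the 10 genes called lower over the whole course.

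IGFBP4 (ENSG00000141753, chromosome 17, 40443461 to 40457731, plus strand), the binding protein that PAPPA cuts, was abundant in every library. It stood at 65.4 FPKM at day 0, 171 at day 2, 241 at day 3, 434 at day 4, 109 at day 6 and 899 at day 30. The course thus had a peak at day 4, a low at day 6 and a second, higher level at day 30, and all neighbours in the order of its levels differed beyond counting error. The rule called the rise from day 0 to day 2 (2.61-fold, 2.48 to 2.74), the fall from day 4 to day 6 (3.99-fold, 3.86 to 4.13) and the rise from day 6 to day 30 (8.28-fold, 8.01 to 8.56). At day 30 only 21 protein-coding genes had a higher FPKM, and IGFBP4 took 0.163% of all recovered reads.

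IGFBP3 (ENSG00000146674, chromosome 7, 45912245 to 45921874, minus strand), the main IGF carrier of serum, had a trough in the middle of the course. It stood at 5.15 FPKM at day 0, 0.598 at day 2, 0.168 at day 3 from 11 reads, 0.678 at day 4, 19.0 at day 6 and 681 at day 30. It fell from day 0 to day 2 (8.61-fold, 6.28 to 12.1) and rose from day 4 to day 6 (28.0-fold, 21.1 to 38.1). By the difference of log2(FPKM + 1), not by fold, that rise was the 14th greatest of the 16727 genes compared. IGFBP3 rose again from day 6 to day 30 (35.8-fold, 34.0 to 37.7). Days 4 and 2 did not differ beyond counting error (1.13-fold, 0.740 to 1.75). At day 30 IGFBP3 ranked 31 among protein-coding genes and took 0.257% of all recovered reads, more than any other of the 10.

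IGFBP5 (ENSG00000115461, chromosome 2, 216672105 to 216695525, minus strand), a binding protein that also attaches to matrix and is another substrate of PAPPA, alternated between low levels before day 30. Its levels were 3.93 FPKM at day 0, 0.280 at day 2, 2.35 at day 3, 0.422 at day 4, 3.65 at day 6 and 76.0 at day 30. Each of the 5 steps passed the rule, down, up, down, up and up. IGFBP5 was the only one of the 10 genes called in every step. The level at day 30 was 20.9-fold that at day 6 (18.9 to 23.1), and days 0 and 6 did not differ beyond counting error (1.08-fold, 0.934 to 1.24).

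IGFBP1 (ENSG00000146678, chromosome 7, 45888357 to 45893668, plus strand), known from liver and from the decidua of the uterus, had 0 reads at days 0, 2, 3 and 6 and 1 read at day 4. At day 30 it had 75 reads, or 3.67 FPKM (2.89 to 4.60). Against a floor of 3 reads in the earlier library, day 30 was 35.0-fold higher than day 6 and 29.4-fold higher than day 0. The counting intervals of the 2 folds begin lower, at 27.8 and 23.3. IGFBP1 entered a comparison only through its day 30 level, so its call adds nothing to that level.

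These binding protein genes lie in pairs in the genome. IGFBP1 and IGFBP3 point towards each other on chromosome 7 with 18576 bases and no gene of the table between them. IGFBP2 and IGFBP5 do so on chromosome 2 with 7668 bases between. The partners had different courses. The level of IGFBP2 was 72.3-fold that of IGFBP5 at day 0 (65.2 to 80.4), 560-fold at day 2 (389.7 to 836.5) and 0.605-fold at day 30 (0.578 to 0.633), so that the order of the pair was turned round at day 30. At day 30 IGFBP3 stood 185-fold above IGFBP1 (148 to 236).

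IGFBP6 (ENSG00000167779, chromosome 12, 53097436 to 53102345, plus strand), which binds IGF2 with much higher affinity than IGF1, had its highest level at day 6. On that day it was next to IGFBP4 among the binding proteins by FPKM. It stood at 2.81 FPKM at day 0, 5.08 at day 2, 8.49 at day 3, 27.2 at day 4, 78.1 at day 6 and 7.28 at day 30. It rose from day 3 to day 4 (3.20-fold, 2.69 to 3.83) and from day 4 to day 6 (2.88-fold, 2.62 to 3.16). The fall to day 30 (10.7-fold, 8.93 to 13.0) was the only call of a lower level in that step among the 10 genes. IGFBP6 was also called higher at day 30 than at day 0, by 1.12 on the log2(FPKM + 1) scale, and that call was lost when scaled by recovered reads, where the difference was 0.90.

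IGFBP7 (ENSG00000163453, chromosome 4, 57030773 to 57110385, minus strand), a secreted protein of vessel walls and matrix with low affinity for IGFs, stood at 0.428 FPKM at day 0, 0.129 at day 2, 0.325 at day 3, 1.70 at day 4, 3.36 at day 6 and 77.5 at day 30. The levels of days 0, 3 and 2 rested on 12, 9 and 4 reads. Neighbours in the order of these levels did not differ beyond counting error, but day 0 was above day 2 (3.32-fold, 1.01 to 14.1). Day 4 was called higher than day 3 (5.24-fold, 2.56 to 12.1) and day 30 higher than day 6 (23.1-fold, 19.1 to 28.2). POLR2B on the opposite strand shares 14.0% of the exon bases of IGFBP7 and varied between 20.6 and 28.7 FPKM.

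PAPPA (ENSG00000182752, chromosome 9, 116153804 to 116402322, plus strand) had the greatest rise of the 10 genes from day 6 to day 30 and from day 0 to day 30, while IGFBP3 had the wider range over the 6 libraries (9.19 against 7.88 on the log2(FPKM + 1) scale). It stood at 0.107 FPKM at day 0 from 18 reads, 0.134 at day 2 from 25 reads, 2.10 at day 3, 2.09 at day 4, 1.31 at day 6 and 261 at day 30 (258 to 263). It was called higher at day 3 than at day 2 (15.6-fold, 10.4 to 24.5) and at day 30 than at day 6 (199-fold, 176 to 226). Days 0 and 2 did not differ beyond counting error (1.25-fold, 0.657 to 2.44), nor did days 3 and 4 (interval of the fold 0.863 to 1.16). By the difference of log2(FPKM + 1), the last step was the 11th greatest rise among 18023 genes compared. Over the whole course the fold was 2435 (1541 to 4109). By the same difference, not by fold, PAPPA was 8th among 17874, compared only through its day 30 level. It ranked 92 among protein-coding genes at day 30. The antisense gene PAPPA-AS1 shares 21.2% of the exon bases of PAPPA and was at 0 in all libraries. How reads on shared bases were counted is not stated, so the levels of PAPPA may be lower limits.

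The substrate stood far above the protease until the last library. The level of IGFBP4 was 611-fold that of PAPPA at day 0 (386 to 1034), 1271-fold at day 2 (860.4 to 1966), 115-fold at day 3 (103 to 129), 207-fold at day 4 (187 to 229.9), 83.0-fold at day 6 (73.2 to 94.4) and 3.45-fold at day 30 (3.40 to 3.51). The inhibitor STC1 stood at 41.8 FPKM at day 0, 21.9 at day 2, 25.2 at day 3, 5.80 at day 4, 3.92 at day 6 and 72.9 at day 30. STC2 stood at 22.8, 13.1, 27.3, 14.7, 4.34 and 122 FPKM on the same days. Both inhibitors rose from day 6 to day 30 together with PAPPA. In that library the level of PAPPA was 3.58-fold that of STC1 (3.46 to 3.70) and 2.13-fold that of STC2 (2.08 to 2.18), whereas on each earlier day it was below both. PAPPA2, the related protease, never exceeded 0.511 FPKM.

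Since FPKM is per length, levels of the 6 high-affinity binding proteins can be added within a library. Their sum was 362 FPKM at day 0, 333 at day 2, 443 at day 3, 540.5 at day 4, 239.5 at day 6 and 1713 at day 30. IGFBP2 held 78.6% of the sum at day 0, 47.0% at day 2, 43.1% at day 3, 14.5% at day 4, 12.5% at day 6 and 2.68% at day 30. IGFBP4 held 18.1%, 51.2%, 54.4%, 80.3%, 45.4% and 52.5% on these days, so it led by FPKM from day 2 onward. At day 6, IGFBP6 was next with 32.6%, and at day 30 IGFBP3 was next with 39.7%. These shares do not depend on the scaling between libraries. They do rest on the gene lengths, which count all exon bases, 4767 for IGFBP2, 4571 for IGFBP3 and 2200 for IGFBP4. In reads not divided by length, IGFBP2 led IGFBP4 at day 2 (12017 against 6042) and day 3 (13072 against 7613). IGFBP3 led IGFBP4 at day 30 (38439 against 24447). IGFBP4 led IGFBP2 in reads at day 4 (15087 against 5894) and day 6 (4133 against 2476).

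**Figure D3:**
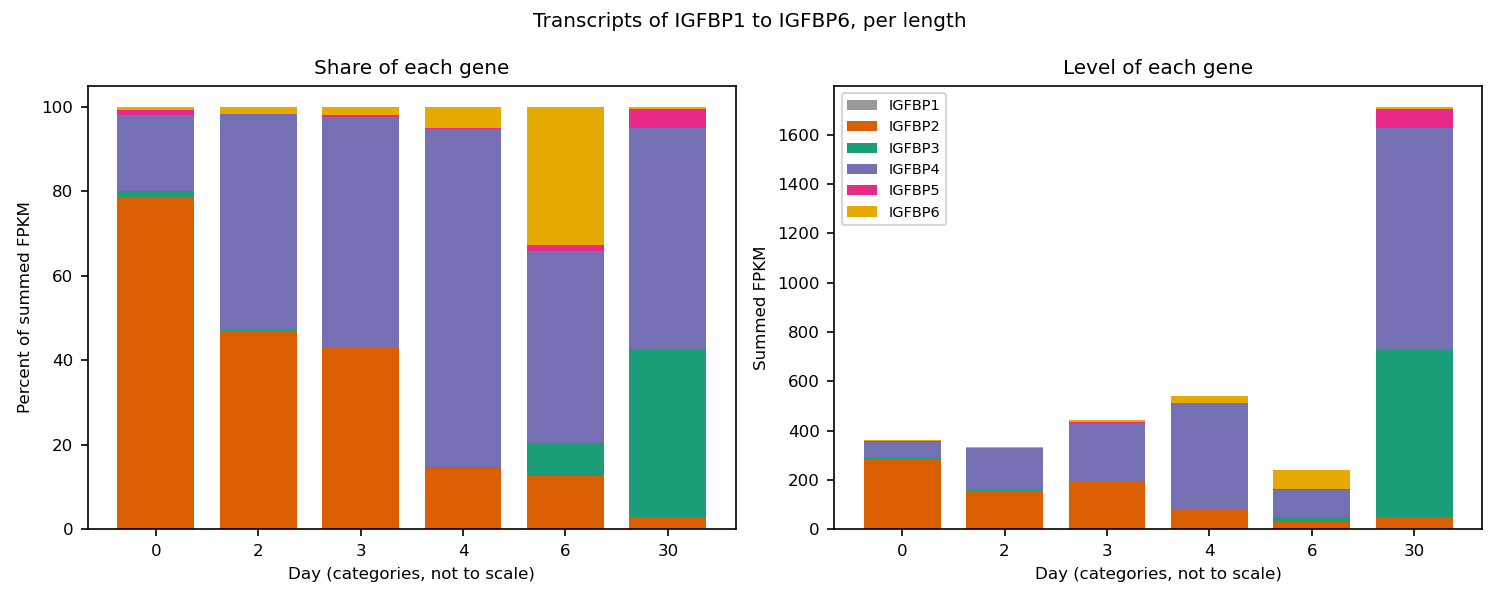
Stacked bars of IGFBP1 to IGFBP6 by day on the x axis, as the percent of their summed FPKM on the left y axis and as summed FPKM on the right y axis, 1 library a bar. IGFBP2 shrinks from 78.6% at day 0 to 2.68% at day 30, and the whole bar is highest at day 30 with 1713 FPKM.

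Counted over the steps, 1 of the 10 genes was higher and 2 were lower at day 2 than at day 0, where 16.5% of all 16019 genes compared were called, 8.78% higher and 7.75% lower. From day 2 to day 3, 2 were higher and 0 lower, beside 12.1% of all genes called, 7.13% higher and 4.98% lower. From day 3 to day 4, 2 were higher and 2 lower, beside 7.82% of all genes called, 4.23% higher and 3.59% lower. From day 4 to day 6, 3 were higher and 2 lower, beside 12.2% of all genes called, 5.51% higher and 6.71% lower. From day 6 to day 30, 6 were higher and 1 lower, beside 36.3% of all genes called, 21.0% higher and 15.3% lower. From day 0 to day 30, 7 were higher and 1 lower, beside 45.0% of all genes called, 25.9% higher and 19.1% lower. Genes under 1 FPKM in both libraries numbered 4, 4, 3, 2, 1 and 1 of the 10 in this order. In the last 2 comparisons the median difference was 3.04 and 3.76 over the 9 genes compared, against 0.08 and 0.13 over all genes compared. IGFBP1 entered both only through its day 30 level, and PAPPA and IGFBP7 entered the whole-course comparison in the same way. In the earlier steps, too, some called genes passed the minimum only in the library where they were high. These were IGFBP3 and IGFBP5 for day 2 against day 0, and IGFBP5 and PAPPA for day 3 against day 2. For day 4 against day 3 they were IGFBP5 and IGFBP7, and for day 6 against day 4 IGFBP3 and IGFBP5. All these figures therefore describe the genes compared and not the list of 10. The comparisons share libraries.

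**Figure D4:**
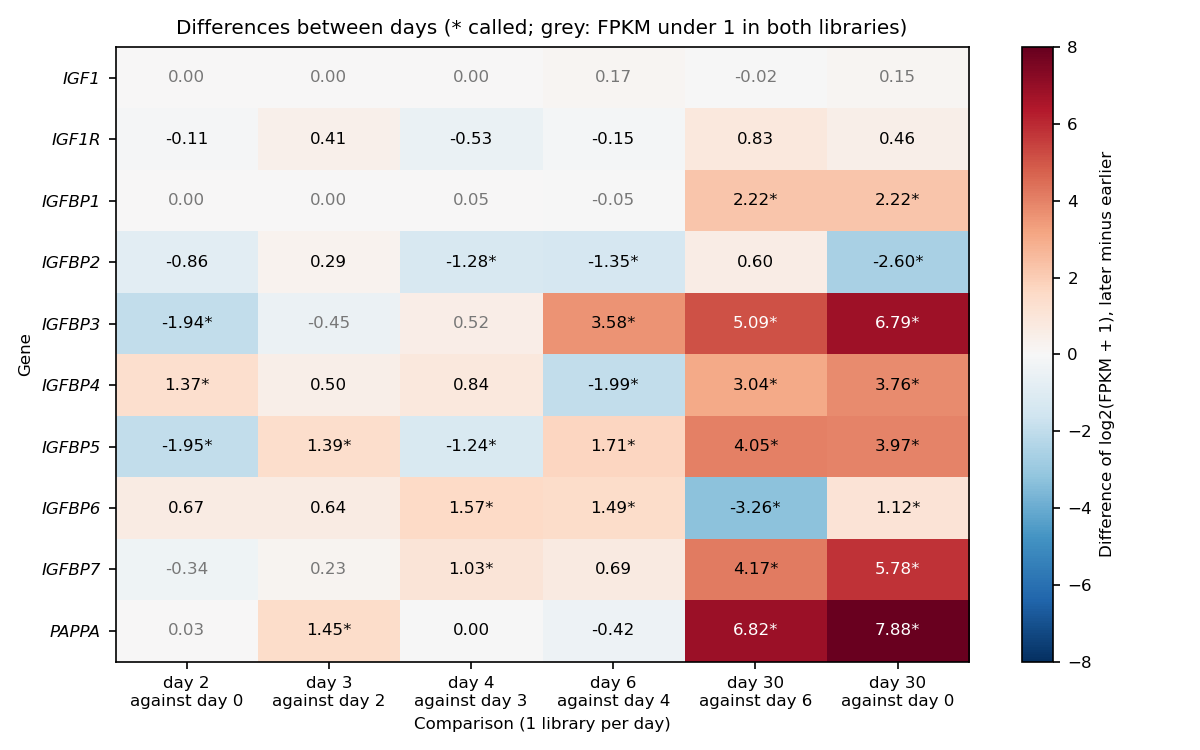
Differences of log2(FPKM + 1), later minus earlier, for the 10 genes (rows) and 6 comparisons (columns), with a star where the rule was passed and grey numbers where both libraries were under 1 FPKM. The column of day 30 against day 6 holds 6 starred rises, led by PAPPA with 6.82, and 1 starred fall, that of IGFBP6 with -3.26.

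The share of rises among all calls moved with the scaling. For day 30 against day 6 the table gave 3776 genes higher and 2761 lower, against 2569 and 4300 when scaled by recovered reads and 5512 and 7209 on the TPM scale. For day 6 against day 4 it gave 922 and 1123, against 3459 and 2693 on the TPM scale. The median difference of all genes compared shifted by -0.41 (recovered reads) and -0.29 (TPM) for day 30 against day 6, and by -0.24 and 0.12 for day 30 against day 0. On the TPM scale it also shifted by 0.24 at day 3 against day 2, -0.12 at day 4 against day 3 and 0.19 at day 6 against day 4. No called direction of the 10 genes was turned round by any scaling.

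The wider pathway was followed in 48 further genes. From day 6 to day 30, 19 rose and 2 fell of 43 compared, beside 21.0% and 15.3% of all genes, with a median difference of 0.89, against 14 and 7 of 44 with a median of 0.48 when scaled by recovered reads. Over the whole course 16 rose and 6 fell of 44, beside 25.9% and 19.1% of all genes, with a median of 0.83. In the 4 earlier steps 2 of 40, 3 of 41, 2 of 42 and 4 of 43 compared rose, beside 8.78%, 7.13%, 4.23% and 5.51% of all genes. In the same order 4, 2, 2 and 3 fell, beside 7.75%, 4.98%, 3.59% and 6.71%. Of the 7 proteases and inhibitors in the list, 5 of 6 compared rose in the last step, beside 21.0% of all genes. Scaled by recovered reads it was 4 of 6, beside 14.4%. ADAM9, a membrane protease that can cut binding proteins, went from 6.38 to 31.9 FPKM, and ADAM12, which cuts IGFBP3 and IGFBP5, from 3.35 to 10.7. HTRA1, a secreted protease of the binding proteins, had its highest level earlier, with 4.85 FPKM at day 2, 70.4 at day 3, 261 at day 4, 79.1 at day 6 and 55.7 at day 30.

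Downstream of the receptor, the adaptor IRS2 fell from 18.9 to 5.20 FPKM between days 4 and 6 and rose to 58.5 at day 30, whereas IRS1 rose from 11.5 to 25.1 between days 4 and 6 and stood at 17.9 at day 30. Of 18 PI3K, AKT and FOXO genes, all compared in the last step, 6 rose and 0 fell, beside 21.0% of all genes higher and 15.3% lower. Scaled by recovered reads 5 rose and 3 fell, beside 14.4% and 24.1% of all genes. Lists this short are read as counts only. FOXO3, a transcription factor that AKT holds out of the nucleus, went from 6.12 to 47.7 FPKM, and FOXO1 from 2.81 to 15.4. At day 0 FOXO3 stood at 16.1 FPKM and FOXO1 at 14.3. Over the whole course FOXO3 was called higher, and FOXO1 was not called (1.08-fold, 0.996 to 1.17). MTOR, a kinase that controls growth, stood at 8.46 FPKM at day 6 and 4.72 at day 30 without a call. Over the whole course MTOR was called lower, from 14.2 FPKM at day 0 (3.00-fold, 2.76 to 3.27). Of the 5 growth hormone axis genes 4 rose in the last step, beside 21.0% of all genes, or 2 when scaled by recovered reads, beside 14.4%. The growth hormone receptor GHR reached 2.01 FPKM at day 30 and the kinase JAK2 18.8 FPKM. GHR was under 1 FPKM at day 6 and was compared only through its day 30 level. IGFBPL1, a binding protein relative, went the other way from most, with 15.6 FPKM at day 0, 55.2 at day 2, 22.1 at day 3 and 1.85 at day 30.

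Beside the levels at day 30, markers of several cell types moved as well, and their part in the courses above was not tested. Over all genes compared, 21.0% rose and 15.3% fell from day 6 to day 30, the last step. Fibroblast and stromal markers summed to 17.9 FPKM at day 0, 669 at day 6 and 6106 at day 30, with 7 of the 8 compared called higher in the last step, and DPT at 0 reads. COL3A1, a fibrillar collagen, went from 174 to 4173 FPKM and POSTN from 0.254 to 132. Of 10 cardiomyocyte markers 6 rose and 1 fell in the last step, and their median level went from 1.80 to 13.3 FPKM. The sum went from 360 to 218 FPKM. MYL7, an atrial myosin light chain, fell from 336 to 64.0 FPKM, while MYH6 rose from 3.43 to 69.0 and MYH7 from 0.133 to 28.9. Hepatic endoderm markers summed to 441 and 728 FPKM and moved both ways, with 5 of 10 higher and 4 lower. AFP, a fetal plasma protein, rose from 1.10 to 299 FPKM, SERPINA1 from 0.106 to 114 and ALB from 0.0856 to 14.5. APOA1 fell from 264 to 125 FPKM, FOXA2 from 34.1 to 4.10, HNF4A from 10.8 to 4.33 and APOB from 10.7 to 3.54. Epicardial markers summed to 13.4 and 38.6 FPKM, with 2 of 6 compared higher and 0 lower. Of 6 smooth muscle and pericyte markers compared 5 rose, ACTA2 from 8.11 to 37.8 FPKM and TAGLN from 4.36 to 27.2 among them, while RGS5 fell from 94.2 to 14.0. Of 7 endothelial markers compared 0 rose and 3 fell, CDH5 (from 3.76 to 0.319 FPKM), TIE1 (from 2.78 to 0.484 FPKM) and VWF. KDR stood at 73.9 and 63.6 FPKM without a call and held most of the endothelial sum. Some markers called higher were under 1 FPKM at day 6 and were compared only through their day 30 level. These were MYH7, MYL2, NPPA, POSTN, DCN, ALB, SERPINA1, WT1, UPK1B and KCNJ8. CDH5, TIE1 and VWF were compared only through their day 6 level. The calls of all these markers add nothing to those levels.

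Trophoblast, the tissue from which PAPPA of pregnancy serum comes, was looked for with 10 markers. At day 30 their sum was 35.1 FPKM, 5 were at 1 FPKM or more and 2, PSG4 and PSG5, had 0 reads. From day 6 to day 30, 4 of the 5 compared were called higher, beside 21.0% of all genes. KRT7 went from 0.438 to 12.1 FPKM, CGA from 0.0253 to 4.64, TFAP2A from 0.0839 to 3.45 and XAGE2 from 0 reads to 2.36. All 4 were under 1 FPKM at day 6 and were compared only through their day 30 level, so their calls add nothing to that level. GATA3, which other cell types also express, was the only marker at 1 FPKM or more at day 6 and fell from 48.5 to 12.0 FPKM. Whether the 4 others are confined to trophoblast was not tested. CGB5, CGB8 and CSH1 stayed under the minimum, at 0.192, 0.275 and 0.0975 FPKM at day 30. The sum at day 6 was 49.7 FPKM, nearly all of it GATA3. The part of such cells in the level of PAPPA was not tested. IGFBP1 and IGFBP3 are known to respond to low oxygen. A list of 11 other hypoxia response genes summed to 236 FPKM at day 6 and 942 at day 30. In that step 8 of the 11 rose, beside 21.0% of all genes, with a median difference of 1.51. Scaled by recovered reads 7 rose, beside 14.4% of all genes. CA9, called higher, was under 1 FPKM at day 6 and was compared only through its day 30 level. The sums of days 0, 2, 3 and 4 were 797, 536, 889 and 442 FPKM, and SLC2A1 and BNIP3 held 402 and 213 FPKM of the sum at day 3. The part of low oxygen in the levels of IGFBP1 and IGFBP3 was not tested.

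For the 8 genes with a range of at least 1, the 2 protein-coding genes with the most similar course were taken by the root mean square difference of centred log2(FPKM + 1) over the 6 libraries, among 13863 candidates. They were the collagen gene COL6A3 (0.79) and TGFBI (0.88) for IGFBP3, TSC22D3 (0.51) and COLEC11 (0.51) for PAPPA, and RCN3 (0.27) and IL11 (0.32) for IGFBP4. IGFBP2 was nearest to UNC13A (0.27) and PPP1R1B (0.32), IGFBP5 to BCL6 (0.47) and CLDN4 (0.53), and IGFBP6 to NXPH2 (0.34) and FZD4 (0.36). MYH6 (0.15) and EPAS1 (0.29) were nearest to IGFBP7. EREG (0.02) and VNN3 (0.03) were nearest to IGFBP1, with 0 FPKM in all libraries before day 30. TSC22D3 stood at 7.86 FPKM at day 6 and 534 at day 30, and COLEC11 at 1.62 and 105. COL6A3 stood at 7.96 and 210.2 FPKM on these days. With a pseudocount of 0.1, 5 of the 16 names remained, namely COL6A3, RCN3, FZD4, EPAS1 and COLEC11, so the other names depend on how low values are treated.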

How the data were processed

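Messenger RNA was captured on poly-T beads and copied from random hexamers, per the labels' protocols. CASAVA, HISAT2 and featureCounts 1.5.0-p3 are named in the submitters' processing notes. Build, strand use and program options: not given in the sources used here. The authors deposited 1 table of FPKM values, with 58735 genes and 6 libraries, and columns were matched to samples by day. All 58735 gene positions equal those of GENCODE release 29 on GRCh38. Multiplying FPKM by gene length returned whole reads, within 0.001 read for 100% of nonzero values. For the members and IGF2 this length equals all merged exon bases of the gene. Ratios and shares between genes rest on that choice of length. The deposited denominators were 0.826 (day 30) to 1.12 (day 6) times the recovered read totals.

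The members and gene lists were chosen with earlier results of these data known. Differences were taken on log2(FPKM + 1), which understates changes of low genes, over the whole table. A single library per time point allows no test across samples. Folds are FPKM ratios, and a library with 0 reads was set to a floor of 3 reads. Reads carried no molecular identifiers, so intervals may be too narrow. Named are the members, genes of the fixed lists, and the 2 nearest courses per member. IGF2 and RGS5 have 2 rows each, of which the one with the greater summed FPKM was used. The 9 alternatives changed the pseudocount (0.1), the minimum (none, or 5 FPKM), the scaling (recovered reads, TPM or median of ratios), the call rule (interval excluding 1, or a difference of 2) and the genes compared (protein-coding). Intervals and calls were checked on simulated reads. The software was Python 3.11.15, NumPy 2.4.6, pandas 2.3.3, SciPy 1.17.1 and matplotlib 3.10.9.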

Additional observations from a re-analysis of the deposited data

How the results depend on the processing

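Of 29 calls of the 10 genes over the 6 comparisons, no direction was turned round under any of the 9 alternatives. Calls were lost 23 times, by the stricter minimum, the stricter difference and, for IGFBP6 at day 30 against day 0, scaling by recovered reads, and gained 2 times on the TPM scale (IGFBP3 at day 4 and IGFBP7 at day 6). With a difference of at least 2 the members called went from 3 to 0 at day 2 against day 0, from 2 to 0 at day 3 against day 2, from 4 to 0 at day 4 against day 3 and from 5 to 1 at day 6 against day 4, since fewer values reach that size. With a minimum of 5 FPKM they became 0 at day 3 against day 2 and 2 at day 4 against day 3, since IGFBP5, IGFBP7 and PAPPA lay under it. Of the 48 further pathway genes, the TPM scale, chosen after seeing the data, called 8 genes in place of 5 at day 3 against day 2, and 11 in place of 7 at day 6 against day 4, and the cause was not tested. Genes highest at day 30 numbered 7, or 6 by recovered reads and on the TPM scale, the difference being IGF1R. Counts over all genes moved by over 1.5 times, with their lowest values under a difference of 2 and their highest on the TPM scale. On that scale values were larger under the same minimum and pseudocount. Genes higher and lower numbered 1406 and 1242 at day 2 against day 0 (302 to 3625 and 133 to 2781), 1152 and 804 at day 3 against day 2 (144 to 4143 and 69 to 1959) and 693 and 588 at day 4 against day 3 (63 to 2240 and 50 to 2369). They numbered 922 and 1123 at day 6 against day 4 (153 to 3459 and 179 to 2693), 3776 and 2761 at day 30 against day 6 (1107 to 5512 and 485 to 7209) and 4635 and 3406 at day 30 against day 0 (1513 to 8138 and 856 to 5538). No paired analysis was possible because each day has 1 library, and no library could be left out of a comparison for the same reason. Depth limits the levels that rest on 25 reads or fewer, those of IGF1 throughout, IGFBP1 before day 30, IGFBP7 at days 0, 2 and 3, PAPPA at days 0 and 2 and IGFBP3 at day 3.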
